A study of Mus musculus with 60 samples.

Results

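The regions described here are stretches of DNA that the authors listed as open to a transposase in the dorsal root ganglia after sciatic nerve axotomy (SNA), that they listed after none of 3 other surgeries, and that carried an acetylated histone after SNA. To find them, the 4 lists of ATAC peaks, 1 per surgery, were merged wherever peaks overlapped by 1 bp or more, which gave 368411 regions. Of these, 59187 (16.1% of the merged regions) held a peak in the SNA list only. A region was kept when it also overlapped an H3K9ac or H3K27ac peak of the SNA lists by at least 1 bp. This left 4813 acetylated SNA-only regions, 8.13% of the SNA-only regions. The regions were therefore chosen by the ATAC lists and by the SNA acetylation lists, and values from these are given below as a description. The same rule applied to each other surgery with its own acetylation lists gave 2573 Sham regions (4.88% of the Sham-only regions), 3581 Lam regions (6.77%) and 4697 DCA regions (8.50%).

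All groups were C57BL/6 mice aged 6 to 8 weeks, whose L4 to L6 ganglia, which send axons into the sciatic nerve, were taken 24 h after surgery. SNA cuts the peripheral branch of these sensory neurons, and Sham is the matching operation without the cut. Axotomy of the dorsal columns in the spinal cord (DCA) cuts the central branch of the same neurons, and laminectomy (Lam) opens the spine without that cut. The 60 samples comprised 12 ATAC samples of 1 mouse each, 3 per surgery, and 24 ChIP samples with 24 inputs, each from a pool of 10 mice, 2 per mark and surgery. The tissue was whole ganglion, which holds satellite glia, Schwann cells, macrophages and vessels beside neurons, so a change in the number of cells of a type and a change within a cell cannot be told apart.

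ATAC-seq marks DNA that a transposase can reach, as at promoters and enhancers not wrapped in nucleosomes. Acetylation of histone H3 at lysine 9 (H3K9ac) is typical of active promoters, and acetylation at lysine 27 (H3K27ac) of active promoters and enhancers, while trimethylation at lysine 27 (H3K27me3) marks chromatin repressed by Polycomb. A cut in the peripheral branch is known to start a growth programme in these neurons, in which the transcription factors Jun, Atf3 and Stat3 take part, whereas a cut in the central branch starts it only weakly. Jun and Atf3 belong to families that bind AP-1 and CRE sequences, and Stat3 binds a palindrome of the STAT family.

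The DNA of the promoters inside these regions is shown first, because a start site gives the clearest link between a region and a gene. RefSeq promoter windows (GRCm38.p6, from 250 bases before to 50 after a start site) overlapped the regions in 143 cases, for 133 genes. The 8 stretches below are the bases before the start site that lie inside a region, 5′ to 3′ on the gene's strand. Capitals mark the letters of AP-1 (TGANTCA) or STAT (TTCNNNGAA), where N is any base, searched on both strands; CRE (TGACGTCA) was searched too and is in none of the 8. Cdk15 (chr1:59256656-59256905, plus strand, a cyclin-dependent kinase), Commd4 (chr9:57158300-57158512, minus strand, a COMM-domain protein) and Tmsb4x (chrX:167209219-167209318, minus strand, thymosin beta 4, which binds actin monomers) are among the 10 regions over a start site with the highest ATAC values. Tnfrsf12a (chr17:23677450-23677593, minus strand, the receptor of the cytokine TWEAK) is the regeneration-associated gene with a region over its start site. Snx29 (chr16:11405515-11405647, plus strand, a sorting nexin), C1qtnf5 (chr9:44101547-44101769, plus strand, a secreted protein that shares this start site with Mfrp), Sh3tc1 (chr5:35739988-35740237, minus strand) and Lpin3 (chr2:160880466-160880669, plus strand, a lipin phosphatase) were chosen after their values were seen, as promoters with AP-1 or STAT letters in regions acetylated in no list of another surgery.
Cdk15: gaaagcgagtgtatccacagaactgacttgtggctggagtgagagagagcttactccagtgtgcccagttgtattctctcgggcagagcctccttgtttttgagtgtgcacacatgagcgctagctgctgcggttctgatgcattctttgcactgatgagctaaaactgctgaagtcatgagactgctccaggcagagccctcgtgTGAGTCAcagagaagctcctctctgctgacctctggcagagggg
Commd4: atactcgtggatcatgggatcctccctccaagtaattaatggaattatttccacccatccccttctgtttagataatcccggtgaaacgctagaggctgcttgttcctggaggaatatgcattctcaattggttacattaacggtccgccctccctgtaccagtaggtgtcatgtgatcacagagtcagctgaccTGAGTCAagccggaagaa
Tmsb4x: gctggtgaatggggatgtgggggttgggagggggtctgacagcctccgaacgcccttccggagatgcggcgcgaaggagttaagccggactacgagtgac
Tnfrsf12a: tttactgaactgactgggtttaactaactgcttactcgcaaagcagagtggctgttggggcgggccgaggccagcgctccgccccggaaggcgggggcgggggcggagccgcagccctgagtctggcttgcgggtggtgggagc
Snx29: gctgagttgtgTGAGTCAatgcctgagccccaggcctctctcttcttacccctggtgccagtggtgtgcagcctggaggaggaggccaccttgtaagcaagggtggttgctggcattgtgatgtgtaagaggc
C1qtnf5: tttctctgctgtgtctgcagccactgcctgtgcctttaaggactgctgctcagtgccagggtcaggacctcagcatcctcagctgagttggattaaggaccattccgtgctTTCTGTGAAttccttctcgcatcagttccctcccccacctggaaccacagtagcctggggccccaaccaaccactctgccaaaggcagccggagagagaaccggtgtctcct
Sh3tc1: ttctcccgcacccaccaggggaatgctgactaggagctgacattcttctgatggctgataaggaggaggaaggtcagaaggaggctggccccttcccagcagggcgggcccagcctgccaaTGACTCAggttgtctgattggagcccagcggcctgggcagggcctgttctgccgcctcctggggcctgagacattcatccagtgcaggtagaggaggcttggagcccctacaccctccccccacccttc
Lpin3: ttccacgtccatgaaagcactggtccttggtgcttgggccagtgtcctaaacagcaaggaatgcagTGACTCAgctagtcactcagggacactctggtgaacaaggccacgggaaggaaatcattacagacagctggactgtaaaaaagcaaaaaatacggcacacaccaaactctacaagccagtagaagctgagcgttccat

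Cdk15, Commd4 and Snx29 each hold the AP-1 letters TGAGTCA once, and Sh3tc1 and Lpin3 hold the other spelling, TGACTCA. C1qtnf5 holds 1 STAT match, and the Tmsb4x and Tnfrsf12a stretches hold neither motif. The stretches of Gm31920 and Atrx, also among the 10 and with higher ATAC values than Tmsb4x, hold neither motif and are not printed. Among all 131 such stretches of at least 30 bases, 12 held AP-1 letters and 9 held STAT letters. The 8 printed are therefore not a representative sample. Over whole windows, AP-1 letters were in 16 of the 143 promoters of SNA regions (11.2%, Wilson 95% interval 7.01 to 17.4), against 7.81% of all 32851 windows. The share was 9.52% of 63 windows for Sham regions, 6.25% of 80 for Lam regions and 11.8% of 102 for DCA regions, so the intervals of all 4 sets overlapped. STAT letters were in 13.3% of the SNA windows (interval 8.67 to 19.8), against 8.30% of all windows. The share was 7.94% of the Sham, 8.75% of the Lam and 12.7% of the DCA windows, and the intervals of all 4 sets overlapped. CRE letters were in 0 of 143 SNA windows (Wilson 95% upper bound 2.62%), against 1.79% of all windows. The median SNA window held 6 CpG dinucleotides, against 7 in all windows and 22 in windows over regions open after all 4 surgeries, and the GC box (GGGCGG) was in 30.1% of them against 35.7% and 66.3%. In the Sham, Lam and DCA windows the GC box was in 17 of 63, 25 of 80 and 29 of 102. The promoters of Sham, Lam and DCA regions had medians of 5, 6 and 6 CpG. A match of letters is a description of the sequence and shows no binding.

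Each peak list pooled the replicates of a surgery. No value below therefore has an error between animals or a p-value between surgeries. Intervals are Wilson 95% intervals over regions, which cover counting error only, and read depth is unknown because the files hold peaks. The ATAC lists held 174605 peaks for SNA, 153556 for Sham, 158160 for Lam and 164365 for DCA, and the SNA acetylation lists were longer than those of Sham (74652 against 50332 for H3K9ac, 75824 against 43803 for H3K27ac). The longest H3K9ac list was that of DCA, with 89647 peaks. Only 36917 merged regions (10.0%) were in all 4 ATAC lists, and 220007 (59.7%) were in 1 list. Of 20 markers of satellite glia and Schwann cells, 12 had an open and acetylated site within 1 kb of a start site or gene end in every surgery's lists, against 4 of 24 sensory neuron markers, 1 of 20 macrophage markers and 46.5% of all protein-coding genes.

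SNA acetylation covered regions open only after SNA about as often as regions open only after laminectomy. SNA acetylation lay over 8.13% of the SNA-only regions (interval 7.91 to 8.35), 8.26% of the Lam-only regions (8.02 to 8.49), 7.58% of the DCA-only regions (7.36 to 7.80) and 6.92% of the Sham-only regions (6.71 to 7.14). The SNA and Lam values differed by less than their intervals, and the Sham value was the lowest. Regions open after all 4 surgeries were acetylated after SNA in 48.6% of cases. Read the other way, the same SNA-only regions had acetylation peaks in the Sham lists in 5.64% of cases, in the Lam lists in 6.68% and in the DCA lists in 9.06%, so that the DCA lists covered more of them than the SNA lists did. Acetylation present in the SNA lists and in no other surgery's list was found at 1.48% of the SNA-only regions (interval 1.38 to 1.58), 1.60% of the Lam-only, 1.40% of the DCA-only and 1.27% of the Sham-only regions.

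**Figure D1:**
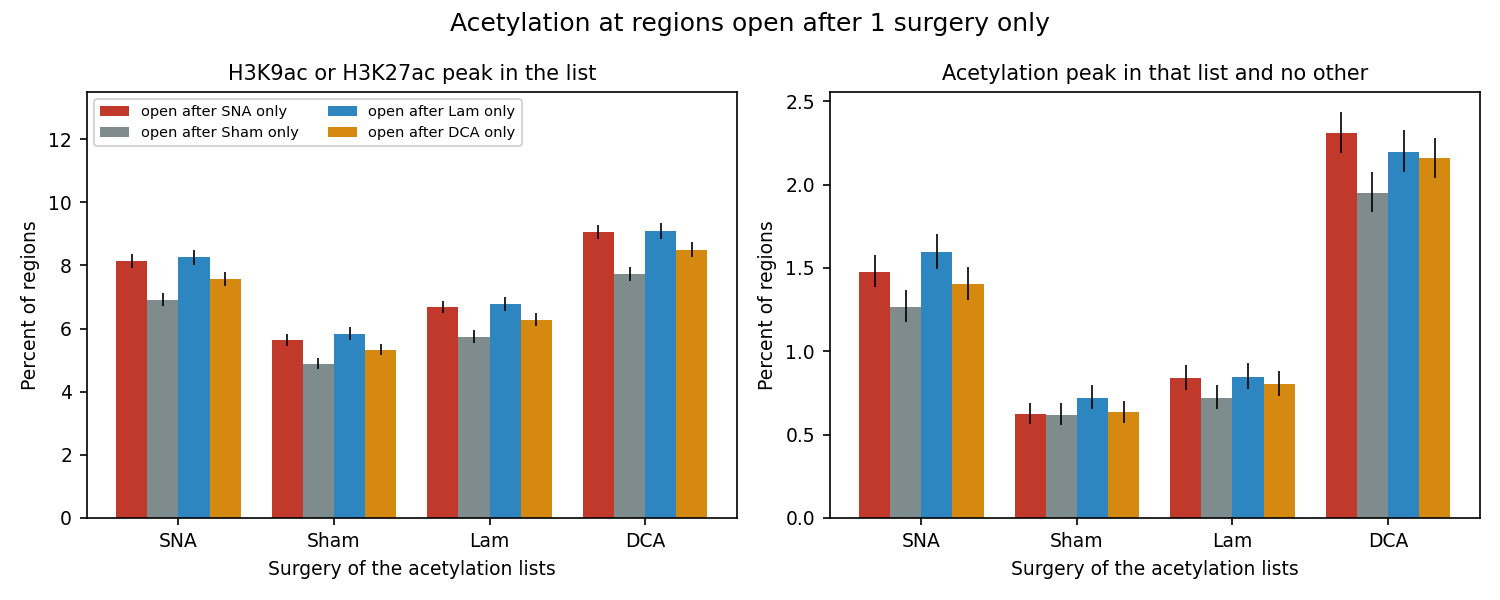
Percent of regions open after 1 surgery only (bar colours) that overlapped an H3K9ac or H3K27ac peak of each surgery's lists (x axis), in any case at left and in that surgery's lists alone at right; lines are Wilson 95% intervals. Within each cluster at left the Lam-only and SNA-only regions stand nearly level (8.26% and 8.13% for the SNA lists), and the DCA lists give the highest bars for every kind of region.

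The number of acetylated SNA-only regions was close to that of DCA over all regions and exceeded it among strong ATAC peaks. At a −log10 q of at least 5, where q is the authors' adjusted p-value of the peak, 374 SNA regions remained, against 79 for Sham, 69 for Lam and 216 for DCA. At 8 or more the numbers were 45, 6, 5 and 15. The SNA-only regions as a whole, acetylated or not, showed the same order at a −log10 q of 5, with 3565 against 1206, 1061 and 1905. Among these strong regions, SNA acetylation lay over 10.5% of the SNA-only (interval 9.53 to 11.5), 9.45% of the Sham-only, 8.95% of the Lam-only and 9.87% of the DCA-only regions, and the 4 intervals overlapped. A q-value also grows with the reads behind a list, and the part of depth in these numbers was not tested.

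**Figure D2:**
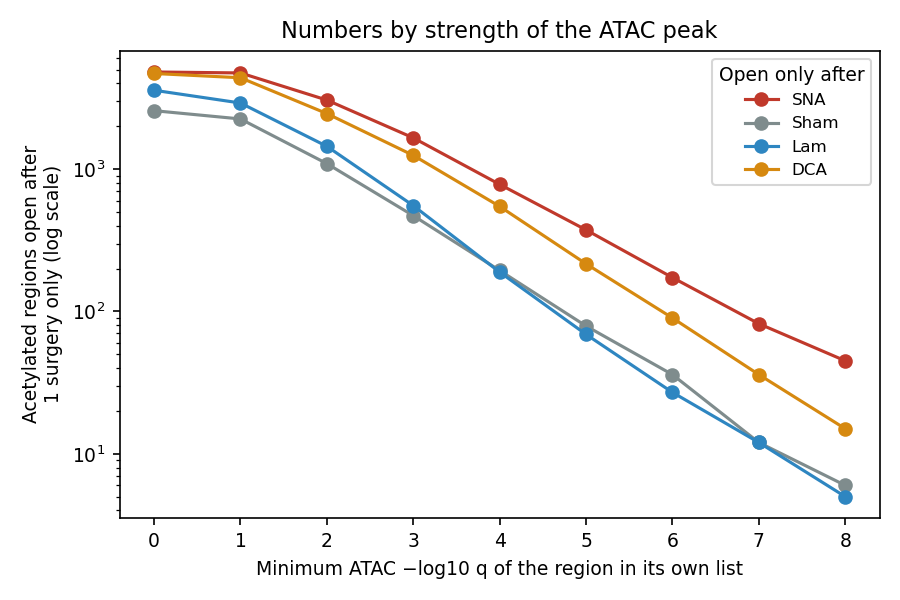
Number of acetylated regions open after 1 surgery only (y axis, log scale) whose ATAC peak reached the −log10 q on the x axis in its own list. The SNA and DCA lines start close together at 4813 and 4697 regions and separate to 45 and 15 at a −log10 q of 8.

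The members had weaker ATAC peaks than sites that were open after every surgery. Their median ATAC −log10 p was 4.53 (range 2.47 to 17.9), their median fold enrichment 1.92 (1.26 to 3.56) and their median width 368 bp. Regions open after all 4 surgeries had a median −log10 p of 8.56 in the SNA list. Their median width was 1106 bp, but each merges peaks of 4 lists and is wider by construction; the median SNA peak was 446 bp wide. SNA-only regions without acetylation had a median −log10 p of 4.28 and a width of 340 bp, close to the acetylated ones. Acetylation peaks over the members were of ordinary height: the median −log10 p was 4.93 for H3K9ac against 4.73 in its whole list, and 6.46 for H3K27ac against 6.12. At the edge of the rule, 28 members overlapped an acetylation peak by 10 bp or less, while 36 SNA-only regions lay within 10 bp of one and were left out. The smallest overlaps were 1 bp at a region in Ehd4 and 1 bp at a region between protein-coding genes, 98.2 kb from Spring1. The closest region outside, 180 kb from Fggy, missed by 1 bp.

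H3K9ac covered 3790 of the 4813 members (78.7%) and H3K27ac 3163 (65.7%). Both marks were present at 2140 (44.5%), H3K9ac alone at 1650 (34.3%) and H3K27ac alone at 1023 (21.3%). The share with both marks was higher than for Sham regions (22.6%), Lam regions (29.4%) and DCA regions (21.7%) in their own lists. SNA was the surgery with long lists of both marks, while DCA had a long H3K9ac list and a short H3K27ac list (46489 peaks), and the part of list length in this difference was not tested. With the SNA lists used for every set, both marks lay over 1591 of 3646 acetylated Sham-only regions. They lay over 1847 of 4368 acetylated Lam-only and 1864 of 4185 acetylated DCA-only regions. The higher share above is therefore one between sets scored by different lists. One acetylation peak covered 1758 members (36.5%) over their whole length.

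Most of the members were acetylated after other surgeries too. An H3K9ac or H3K27ac peak of the Sham lists lay over 2410 members (50.1%, interval 48.7 to 51.5), of the Lam lists over 2800 (58.2%) and of the DCA lists over 3266 (67.9%). The Sham share was 30.5% with every acetylation list limited to a −log10 q of at least 5, and 28.9% with both marks required. In all, 3939 (81.8%) were acetylated in at least 1 other surgery's lists, 1678 (34.9%) in those of all 3, and 874 (18.2%, interval 17.1 to 19.3) in none. The corresponding share acetylated in no other list was 12.7% for Sham regions, 12.5% for Lam regions and 25.4% for DCA regions, each set scored by its own lists. With the SNA lists used for every set, it was 668 of 3646 acetylated Sham-only, 844 of 4368 Lam-only and 774 of 4185 DCA-only regions. In the DCA lists it was 1367 of 5364 acetylated SNA-only regions. The part of list length in these shares was not tested. SNA-only regions without SNA acetylation were acetylated far less often than the members, in 1.71% of cases after Sham, 2.12% after Lam and 3.86% after DCA. At those 3939 members an acetylation peak of another surgery lay where that surgery had no ATAC peak in its list.

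**Figure D3:**
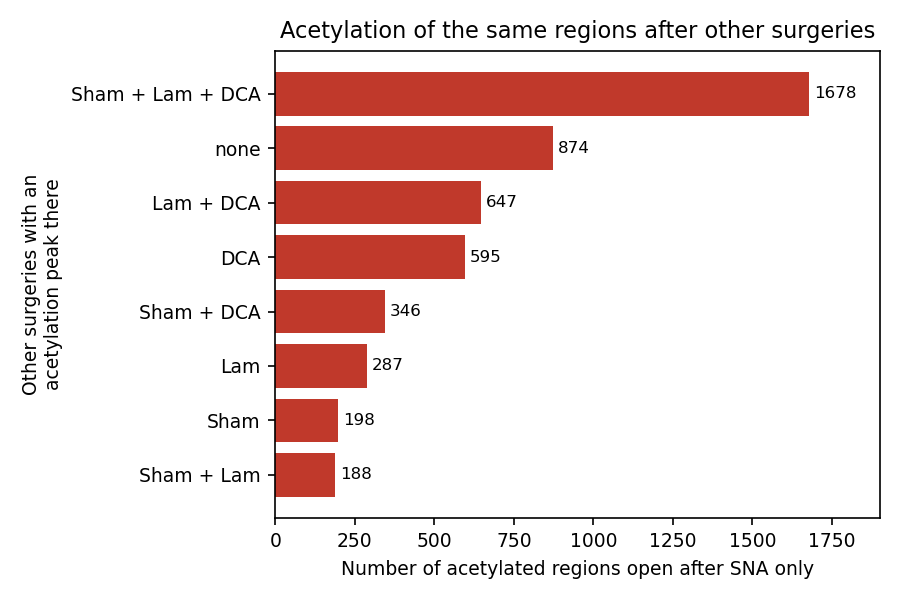
Number of acetylated SNA-only regions (bars) for each combination of other surgeries whose lists also held an H3K9ac or H3K27ac peak there. The bar for all 3 other surgeries is the longest at 1678, and the bar for none holds 874.

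The marks differed in which surgeries shared them. Of members with H3K9ac after SNA, 46.6% had it after Sham, 38.4% after Lam and 68.2% after DCA. Of members with H3K27ac after SNA, 32.7% had it after Sham, 59.9% after Lam and 34.4% after DCA. The surgery with the longest list of the 3 gave the highest share for each mark: the lists held 50332, 50667 and 89647 H3K9ac peaks and 43803, 67311 and 46489 H3K27ac peaks for Sham, Lam and DCA. Around the ATAC summit, H3K9ac peaks covered 60.7% of members in the SNA list, 54.0% in the DCA list, 30.8% in the Sham list and 24.4% in the Lam list. At 1 kb downstream in coordinates the SNA value was 23.7%, and at 5 kb it was 14.4%. H3K27ac covered the summit of 49.1% of members in the SNA list, 39.3% in the Lam list, 19.5% in the Sham list and 19.0% in the DCA list. All of these curves depend on the rule, which required SNA acetylation at the region: at the summits of SNA-only regions without SNA acetylation, H3K9ac of the Sham list covered 0.384%.

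**Figure D4:**
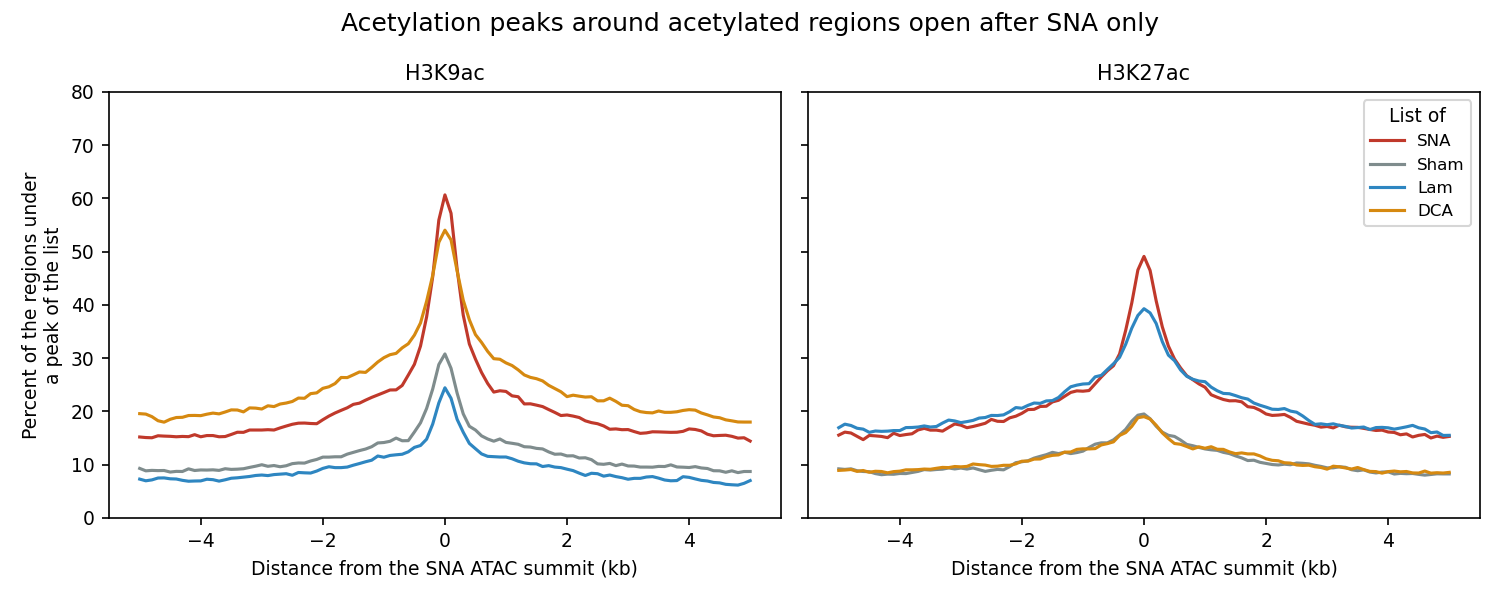
Percent of acetylated SNA-only regions under a peak of each list (lines) by distance from the ATAC summit in kb, for H3K9ac at left and H3K27ac at right. Lists of surgeries without an ATAC peak there also rise at the summit, to 54.0% for DCA H3K9ac and 39.3% for Lam H3K27ac.

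Listed peaks of H3K27me3, which the rule did not use, lay over few of the members. These peaks were close to background, with a median fold enrichment from 1.11 (Sham) to 1.19 (Lam). Their median −log10 p was 0.770 for SNA, 0.885 for Sham, 0.766 for Lam and 0.753 for DCA. The lists held 141635, 122953, 154055 and 90011 peaks in that order, and the part of list length in the shares was not tested. In the SNA list H3K27me3 lay over 135 members (2.80%, interval 2.37 to 3.31), against 15.9% of SNA-only regions without acetylation. It was also lower than at those regions after the other surgeries: 5.03% against 16.1% after Sham, 8.35% against 23.0% after Lam and 0.956% against 7.76% after DCA. The other sets showed the same contrast in their own lists: 3.89% of acetylated against 14.9% of other Sham-only regions, 7.54% against 22.3% for Lam and 0.873% against 7.91% for DCA.

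The members lay mostly inside genes and away from their starts. Within 1 kb of a start site, or of an end of a gene without a listed start site, lay 458 members (9.52%, interval 8.72 to 10.4). Of the rest, 3118 (64.8% of members) lay in a protein-coding gene and 1237 (25.7%) lay between protein-coding genes. SNA-only regions without acetylation were near a start or end in 3.39% of cases, and regions open after all 4 surgeries in 38.4%. Sham, Lam and DCA regions had 10.1%, 10.5% and 9.07%. A start site itself was inside 105 members (2.18%), against 1.98% of Sham, 1.48% of Lam and 1.64% of DCA regions.

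Many members sat beside DNA that was open after another surgery. An ATAC peak of another surgery lay within 200 bp of 845 members (17.6%), within 1 kb of 2692 (55.9%, interval 54.5 to 57.3) and within 5 kb of 4461 (92.7%). For SNA-only regions without acetylation the shares were 9.23%, 37.4% and 79.9%. Sham, Lam and DCA regions had such a neighbour within 1 kb in 60.4%, 60.4% and 56.8% of cases. The SNA acetylation peak over a member also reached a region open after all 4 surgeries for 426 members (8.85%).

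Among the 10 members with the highest ATAC −log10 p were a region 159 kb from Cd180, a region over the start site of Gm31920, and regions in Lipc, Nol4l, Nf1, Nfia, Septin11, Nedd4l and Spsb1. Of these 10, 8 were in a gene, 7 were acetylated after Sham, 7 after Lam and 9 after DCA, and 0 were free of acetylation in all 3.

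Nf1 encodes neurofibromin, which turns Ras off, and its region (chr11:79381487-79381967) had H3K27ac −log10 p values of 12.7 after SNA, 10.5 after Sham, 13.3 after Lam and 6.94 after DCA. Its H3K9ac values were 6.02 after SNA, 8.37 after Lam and 12.4 after DCA, with no peak after Sham. The region in Nfia, a transcription factor of the nuclear factor I family (chr4:97910826-97911184), carried both marks in all 4 surgeries' lists, with H3K27ac at 11.0, 12.9, 13.3 and 10.1 for SNA, Sham, Lam and DCA. Both are sites where an ATAC peak was listed for SNA alone on chromatin acetylated in the other lists as well. The nearest other ATAC peak was 28.4 kb from the Nfia region, whereas a Sham ATAC peak lay 806 bp from the Nf1 region.

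The highest SNA acetylation over a member was at Sirt4, a mitochondrial sirtuin (chr5:115488756-115489210), with an H3K27ac −log10 p of 52.1 after SNA, 12.9 after Sham, 18.5 after Lam and 17.5 after DCA. ATAC peaks of the other surgeries lay 506 to 545 bp from it. The other members with the highest H3K27ac were at Zmynd8, 1.24 kb from Ubb, 68.0 kb from Ubash3b and 47.3 kb from Il17b, and those with the highest H3K9ac were at Thtpa, Itfg2, Gpx1, Sirt4 and Plekhg3. At Gpx1, a glutathione peroxidase (chr9:108339826-108340235), the H3K9ac −log10 p was 21.1 after SNA, 10.4 after Sham, 14.5 after Lam and 31.4 after DCA. All 5 members with the highest H3K9ac were acetylated after each of the other surgeries, and 4 of them lay within 1 kb of a start site or gene end.

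Among members acetylated in no other list, the strongest ATAC peaks were in Polk, which encodes a DNA polymerase used past lesions (chr13:96510672-96510950, −log10 p 12.4), in Aopep (11.9), 31.5 kb from Csnk1a1 (11.4), in Crim1 (11.4) and 23.3 kb from the clock gene Per3 (11.4). Their acetylation was weak: each carried 1 of the marks, with a −log10 p of 5.01 for H3K27ac at Polk, 4.05 for H3K9ac at Aopep, 4.20 for H3K9ac at the Csnk1a1 one, 4.46 for H3K27ac at Crim1 and 6.91 for H3K27ac at the Per3 one. At Polk the H3K27ac peak covered 27 of 279 bp, and ATAC peaks of Lam and DCA lay 175 and 436 bp away. For the Aopep, Csnk1a1, Crim1 and Per3 regions the nearest other ATAC peak lay 1.36, 1.96, 4.08 and 4.40 kb away.

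Over start sites, the region at Cdk15 had the highest ATAC −log10 p of a protein-coding gene, 13.4, with a weak H3K9ac peak after SNA (2.68) and Lam (2.85) and H3K27ac after Lam (6.04) only. The nearest ATAC peak of another surgery lay 18.7 kb from it. Commd4 was acetylated in every list, with H3K9ac −log10 p values of 18.1 after SNA, 13.3 after Sham, 15.3 after Lam and 18.0 after DCA, and a Sham ATAC peak lay 89 bp away. Tmsb4x and Atrx, which encodes a chromatin remodeller, were also acetylated in every list. Both are on the X chromosome, where every ATAC list held few peaks (0.274% of the Lam list to 0.317% of the SNA list). At Tmsb4x the H3K27ac −log10 p was 8.86 after SNA, 10.3 after Sham, 15.2 after Lam and 7.25 after DCA, so the SNA value was not the highest. Snx29, C1qtnf5, Sh3tc1 and Lpin3, printed above, had SNA H3K9ac peaks of 3.50, 4.93, 4.93 and 2.42 and no H3K27ac peak.

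Genes of the response to axotomy were taken from a list of 50 regeneration-associated genes. A member lay in the gene or within 10 kb of it for 9 of the 50, against 13.4% of all 21887 protein-coding genes. Sham regions gave 5 genes (background 9.05%), Lam regions 8 (11.7%) and DCA regions 8 (14.4%). The 9 genes held 15 members, and 8 of those were at Klf7 and Socs3. The SNA count was 1 gene with SNA ATAC peaks limited to a −log10 q of at least 5, 2 with acetylation limited in that way, and 19 within 50 kb. Of the strongest member of each of the 9 genes, 6 were acetylated after Sham, 7 after Lam and 8 after DCA.

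Klf7, a zinc finger transcription factor tied to axon growth, had 5 SNA regions, 0 Sham, 3 Lam and 0 DCA regions. The strongest lay 7.80 kb from the gene (chr1:64021325-64021647), with an ATAC −log10 p of 8.98. ATAC peaks of DCA, Lam and Sham lay 138 bp, 218 bp and 2.34 kb from this region. Its H3K27ac −log10 p was 22.5 after SNA, 27.8 after Lam and 12.2 after DCA, with no peak after Sham, and its H3K9ac was 7.66 after SNA, 4.97 after Sham and 13.8 after DCA. Socs3, the feedback inhibitor of cytokine receptors that signal through Stat3, had 3 SNA, 0 Sham, 2 Lam and 0 DCA regions. The strongest (chr11:117978032-117978457) had H3K9ac at a −log10 p of 3.97 after SNA and 6.75 after DCA and H3K27ac in the Sham (7.21) and Lam (4.86) lists.

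Jun had a single region, 2.04 kb from its start site (chr4:95050020-95050181), and none in the other 3 sets. Its H3K9ac −log10 p was 15.6 after SNA, 5.50 after Sham, 7.56 after Lam and 12.6 after DCA, and H3K27ac was listed after SNA (14.6) and DCA (8.55) only. ATAC peaks of Sham, Lam and DCA lay 326, 229 and 260 bp away. The region therefore sat beside sites open after every surgery, and its H3K27ac was in the lists of both axotomies and of neither control.

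Fos had 1 region (chr12:85476130-85476585), with H3K9ac at a −log10 p of 4.35 after SNA, 4.97 after Sham and 4.78 after DCA. The Stat3 region (chr11:100930660-100930958) had H3K27ac after SNA (6.23) and DCA (7.25) and H3K9ac after DCA (7.53), and none after Sham or Lam. The nearest other ATAC peak was 4.44 kb away. At Tnfrsf12a the region covered the start site printed above, H3K9ac was listed after all 4 surgeries (6.49, 6.66, 4.38 and 9.23 for SNA, Sham, Lam and DCA) and H3K27ac after SNA alone (5.91). Itga7 and Itga5, which encode integrin chains, and Junb had 1 region each. The Junb and Itga5 regions were nearer to other genes, within 0.550 kb of the Rnaseh2a start site and 0.822 kb of that of Zfp385a.

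Transcription factors of the AP-1 and ATF/CREB families, 27 in all, gave 7 genes with an SNA region, 7 with a Sham region, 6 with a Lam region and 11 with a DCA region, which is 25.9%, 25.9%, 22.2% and 40.7% of the list beside 13.4%, 9.05%, 11.7% and 14.4% of all protein-coding genes. Beside Jun, Fos and Junb these were Creb5 with 3 SNA regions, Atf6 with 2, and Mafg and Atf5 with 1 each, the last of these 9.92 kb from Atf5 and nearer to other genes. The Atf6 region, at an end of the gene that encodes this sensor of stress in the endoplasmic reticulum (chr1:170868557-170868871), had H3K27ac after SNA alone (−log10 p of 11.5) and H3K9ac after SNA (4.93) and DCA (6.41).

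The genes with the most SNA regions were long, and 124 genes (0.567%) held 5 or more, counting 10 kb on either side. For Sham, Lam and DCA regions 18 (0.0822%), 62 (0.283%) and 87 (0.397%) genes did so. The 124 genes had a median length of 196 kb, against 40.4 kb for genes with any SNA region and 17.2 kb for all protein-coding genes. SNA regions outnumbered those of each other surgery in 103 of the 124, in genes picked for their SNA count, and the DCA regions did so in 56 of the 87 picked in the same way for DCA.

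Arhgap26 (chr18:38601617-39376285) had 16 SNA regions, against 2 Sham, 7 Lam and 6 DCA regions. Plcb4, a phospholipase C, had 14 against 4, 2 and 6, and Prkce, a protein kinase C, had 13 against 5, 8 and 8. Bcas3 had 13 against 3, 7 and 5, and Cux1, a homeobox transcription factor, had 13 against 3, 5 and 8. In Arhgap26 only 1 of the 16 was acetylated in no other list, in Plcb4 1 of 14, and in Prkce, Bcas3 and Cux1 3 of 13 each. An ATAC −log10 q of at least 5 was reached by 0 of the SNA regions in Arhgap26, 2 in Plcb4, 3 in Prkce and 1 each in Bcas3 and Cux1.

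Lifr, chosen after its values were seen, encodes a receptor chain for the cytokines LIF and CNTF, which act through Stat3. It is 107 kb long (chr15:7090610-7197489) and had 12 SNA regions against 1 Sham, 2 Lam and 3 DCA regions, and it was the shortest of the 15 genes with the most. Its strongest region (chr15:7118740-7119194) had H3K27ac after SNA (−log10 p of 9.32) and Lam (4.86) and H3K9ac after DCA (8.10). The nearest ATAC peaks of the other surgeries were 9.98, 9.71 and 9.42 kb away for Sham, Lam and DCA. All 12 were acetylated in at least 1 other surgery's list, and none in the SNA lists alone. Of the 12, 0 reached an ATAC −log10 q of 5.

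**Figure D5:**
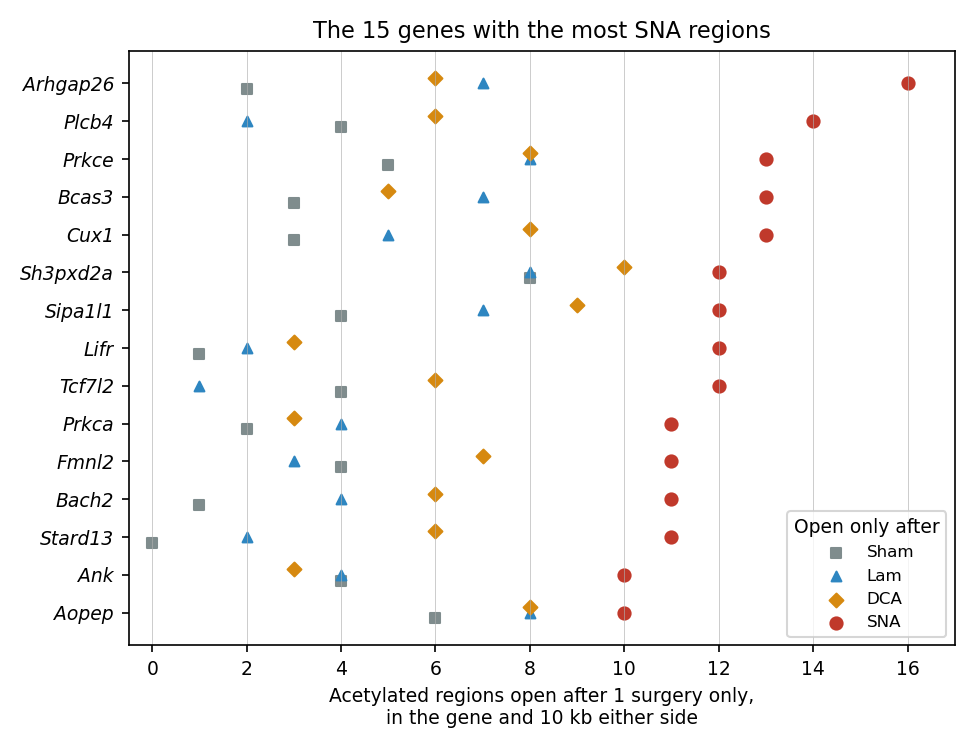
Number of acetylated regions open after 1 surgery only (x axis) in each of the 15 genes with the most SNA regions, counting 10 kb on either side; symbols give the surgery. The genes were picked for their SNA counts, which run from 10 to 16, and Stard13 has 0 Sham regions while Sh3pxd2a has 8.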

How the data were processed

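ATAC-seq and ChIP-seq peaks of mouse dorsal root ganglia were analysed from 16 deposited lists, 1 for each assay and surgery, which per the labels pool the replicates of a condition. The genome build is mm10 per the submitters' processing notes; which aligner and caller were run, and how peaks were filtered, is not given in the sources used here. Ranks in the peak names run past the number of lines, so the lists are parts of longer ones, and a region called SNA-only had no peak in the deposited part of the other lists. The deposited display score is an integer from the authors' caller and was not used. Fold enrichment, as deposited, is the ratio of a peak to the background estimated by the authors' caller. Significance was deposited as −log10 of the p and of the q of each peak, and served here to rank and filter within a list.

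ATAC intervals repeated for several summits were collapsed to the highest. The 4 ATAC lists were merged at an overlap of 1 bp. An ATAC region counted as acetylated or trimethylated when it overlapped a peak of the mark by at least 1 bp. Start sites came from RefSeq promoter windows (GRCm38.p6, whose primary coordinates are those of mm10) for the 17492 of 21887 protein-coding genes with an entry, which include no gene of chromosome 18, and otherwise both ends of the gene were used. The tables give no exons, and regions were not assigned to exons, introns or UTRs. Regions were placed in, between or at a distance from protein-coding genes only. Start sites included those of noncoding genes, so a gene named with a distance can be farther away than a noncoding start site. Genes were counted with 10 kb on either side. The merging and overlap steps were checked on simulated intervals. Shares carry Wilson intervals, and no test between surgeries was possible with 1 list per group. The analysis ran in Python 3.11.15 with pandas 2.3.3, NumPy 2.4.6 and SciPy 1.17.1.

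The regions, the gene lists and the comparisons were chosen with earlier results of these data known. Regions named in the text were the 10 with the highest ATAC −log10 p, the 5 with the highest H3K9ac and the 5 with the highest H3K27ac, the 5 strongest acetylated in no other list, up to 10 over a start site, up to 10 genes of each list, the 5 genes with the most regions and those nearest the overlap limit; others are named as chosen after their values were seen. One of the regions that this rule names is not reported here. All gene list symbols matched except Trac. Alternatives were a −log10 q of at least 5 for ATAC or acetylation, overlap of 50%, merging within 1 kb, equal list sizes, both marks required, and windows of 5 kb and 50 kb.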

Additional observations from a re-analysis of the deposited data

How the results depend on the processing

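Settings were changed 1 at a time for 6 values: the number of acetylated SNA-only regions (4813), their share of SNA-only regions (8.13%), the share acetylated after Sham (50.1%), the share with H3K27me3 (2.80%), the share within 1 kb of a start site or gene end (9.52%) and the number of regeneration-associated genes (9). Of 48 recomputed values, 32 were labelled moved and 16 unmoved. A share labelled moved lay outside the interval of its main value. Counts have no interval, and a count labelled unmoved can still lie well below its main value. Against 4813, those labelled unmoved include 3686 regions with an overlap of 50%, 4136 with equal ATAC list sizes and 3416 with equal acetylation list sizes. Against 9, they include 7 genes with all ATAC lists limited to a −log10 q of at least 5. Limiting all ATAC lists to a −log10 q of at least 5 gave 2728 regions, 18.5% acetylated, 63.1% after Sham and 15.9% near a start or end; regions lose their partners in other lists when those lists are shortened. The same limit on the SNA-only regions alone gave 374 regions, 10.5% acetylated and 1 regeneration-associated gene. The same limit on every acetylation list gave 1279 regions, 2.16% acetylated, 30.5% after Sham, 1.33% with H3K27me3, 14.8% near a start or end and 2 genes. Merging ATAC peaks within 1 kb gave 1978, 5.85%, 44.6%, 3.74%, 5.41% and 4 in the order above, and requiring both marks 2140, 3.62%, 28.9%, 1.78%, 11.6% and 5. An overlap of 50% gave 6.23% acetylated and 47.8% after Sham. A window of 5 kb gave 25.2% near a start or end, and 50 kb around genes gave 19 genes. Equal ATAC list sizes left all 6 labelled unmoved. They gave 4136 SNA, 2803 Sham, 3721 Lam and 4543 DCA regions, so the DCA number then exceeded the SNA number. Of 2 alternatives chosen after seeing the data, equal acetylation list sizes gave 5.77% and 60.1% after Sham, and both ends of every protein-coding gene gave 7.85% near an end. Fewer peaks or a wider window change these values by construction; no other cause was tested. SNA acetylation of SNA-only and Lam-only regions was 18.5% and 18.8% with the ATAC limit on all lists, 2.16% and 2.29% with the acetylation limit, 5.85% and 5.60% after merging within 1 kb; with the limit on the own ATAC list alone they were 10.5% and 8.95%.

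No paired analysis was possible because each deposited list pools the replicates of a surgery, and for the same reason no replicate was left out. Depth is unknown, and the lists end at different heights: the lowest ATAC −log10 p was 2.47 for SNA, 2.27 for Sham, 2.10 for Lam and 2.35 for DCA.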

Other observations

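In all, 13.4% of protein-coding genes had an SNA region in the gene or within 10 kb, 9.05% a Sham, 11.7% a Lam and 14.4% a DCA region. Of 20 satellite glia and Schwann cell markers, 7 (35.0%) had an SNA region counted in this way, against 4 with a Sham, 9 with a Lam and 5 with a DCA region. They were Apoe, Prx, Egr2, S100b and Cnp with 1 region each, and the myelin genes Pmp22 and Mbp with 2 each. The region at Prx, which encodes the myelin protein periaxin (chr7:27501675-27502043), had H3K27ac after SNA (−log10 p of 6.55), Sham (9.86) and Lam (9.07) and H3K9ac after SNA (6.61) and DCA (13.4). The region at Egr2, the transcription factor that drives myelination (chr10:67540788-67541003), had 1 weak H3K9ac peak (−log10 p of 3.07) in the SNA list and none in the others. A DCA ATAC peak lay 73 bp from it, and the nearest Sham and Lam ATAC peaks lay 1.66 and 2.08 kb away. Of 24 sensory neuron markers, 2 (8.33%) had an SNA region, Ntrk2 with 2 and Piezo2 with 1, against 3 with a Sham, 1 with a Lam and 3 with a DCA region. Kdr, the receptor for VEGF in endothelium, had 2 SNA regions, and the stronger (chr5:75939981-75940264) had an ATAC −log10 p of 11.4. It was acetylated in the lists of all 4 surgeries, with an H3K27ac −log10 p of 3.56 after SNA against 14.8 after Sham. Of the other lists, 1 of 20 macrophage markers (Cd68), 1 of 10 fibroblast and mural cell markers (Col1a1), 2 of 10 endothelial markers (Kdr and Cldn5) and 1 of 9 neutrophil and T cell markers (Lck) had an SNA region. The regions counted for Apoe, Cnp, Cd68 and Lck were nearer to other genes (Apoc1, Dnajc7, Mpdu1 and Fam167b).

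The X chromosome held few ATAC peaks in every list, from 0.274% of the Lam list to 0.317% of the SNA list. It carried 101 SNA-only regions, of which 27 (26.7%) were acetylated after SNA, against 8.13% over all chromosomes. The DCA-only regions on X were acetylated after DCA in 13 of 47 cases (27.7%), the Sham-only regions after Sham in 5 of 43 and the Lam-only regions after Lam in 4 of 29. The regions over the Tmsb4x and Atrx start sites were on X, where the nearest ATAC peak of another surgery lay 173 kb and 82.1 kb away.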
